A study of Mus musculus with 8 samples.

Results

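Heat shock protein transcripts were measured in mouse embryonic fibroblasts (MEFs), cells grown out of mouse embryos, that lack or carry Lats2, a kinase gene of the Hippo pathway. The members were 10 genes: Hspa1a, Hspa1b, Hspa8, Dnajb1, Bag3, Hspd1, Hspe1, Hspb1, Hspb8 and Cryab. They were taken as every gene probe that the scanner files name for one of them, 18 of 41174 gene probes. These probes carry the names of 9 of the 10 genes, since no probe is named Hspa1b. For testing, a probe had to exceed background clearly in 2 or more of the 3 extracts of 1 genotype. This held for 17 of the 18, and for 22642 probes over the whole array.

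The study compared Lats2-/- with Lats2+/+ MEFs of strain C57BL/6J, grown untreated in DMEM with 10% fetal bovine serum. Each of 3 litters gave 1 clone of each genotype: #112-C (Lats2-/-) and #112-K (Lats2+/+), #116-D and #116-H, and #121-E and #121-C. Both RNA extracts of a litter were hybridised together on 2-colour Agilent arrays with swapped dyes, with 2 arrays each for litters 112 and 116 and 4 arrays of litter 121. A genotype is thus represented by 1 clone per litter, the embryos' age is not given in the sources used here, and values are given as log2 ratios of Lats2-/- over Lats2+/+ within a litter (n = 3 litters).

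Heat shock proteins are chaperones, proteins that keep other proteins folded. The HSP70 family (Hspa genes) binds unfolded chains with the help of J-domain proteins such as Dnajb1 and exchange factors such as Bag3, the chaperonin made of Hspd1 and Hspe1 folds proteins inside mitochondria, and the small heat shock proteins (Hspb1, Hspb8 and Cryab) hold damaged proteins until they are refolded. After heat or other damage the factor HSF1 binds heat shock elements, repeats of the unit NGAAN in alternating directions, and raises many of these genes together. They are therefore commonly used as a readout of handling stress in cultured cells.

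The promoters are shown first because these elements are where HSF1 is known to bind. They lie before a start of Hspa1a, Hspd1 and Hspe1, which were lower in all 3 litters, and also before that of Hspb1, which was not. RefSeq promoter windows of assembly GRCm38.p6 were at hand for 8 of the 10 members, not for Hspa8 and Cryab, and the 250 bases before each start were searched for GAANNTTC or TTCNNGAA (2 units) and for the same extended by NNGAA or NNTTC (3 units). Each 2-unit motif reads the same on both strands, both 3-unit forms were searched, each the other's reverse complement, and neighbouring matches that share a unit were joined into 1 element. The letters in capitals are the matches, and each sequence runs 5′ to 3′ on the strand of its gene.
Hspa1a, chr17:34972213-34972300, minus strand: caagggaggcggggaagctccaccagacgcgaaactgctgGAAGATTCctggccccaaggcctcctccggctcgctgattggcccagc
Hspb1, chr5:135887762-135887869, plus strand: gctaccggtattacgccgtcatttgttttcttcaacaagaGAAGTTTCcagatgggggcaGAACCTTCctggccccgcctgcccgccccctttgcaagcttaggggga
Hspe1, chr1:55088019-55088116, plus strand: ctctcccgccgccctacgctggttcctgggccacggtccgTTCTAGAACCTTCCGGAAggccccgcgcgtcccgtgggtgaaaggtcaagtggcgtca

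Hspe1 and Hspd1 lie head to head and share the element printed for Hspe1. The second of the 2 annotated Hspd1 starts lies 216 bases from the Hspe1 start, and the same 4 units, read on the other strand, occupy positions -144 to -127 before it and positions -89 to -72 before Hspe1 (the base just before the start is -1). A run of 4 or more units was found in 7 of 32851 promoter windows (0.0213%), and 3 units in 153 (0.466%). Hspa1a and its neighbouring copy Hspa1b had 1 element of 2 units at positions -104 to -97, and their 250 bases matched at 247 positions, so that the Hspa1a stretch above is also that of Hspa1b at chr17:34959295-34959382. Hspb1 had 2 elements of 2 units, a length that occurred in 12.8% of all windows. No match lay before the starts of Dnajb1, Hspb8 or Bag3. For Hspb8 and Bag3 a 2-unit match lay after the start. A match is a stretch of letters and does not show binding.

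**Figure D1:**
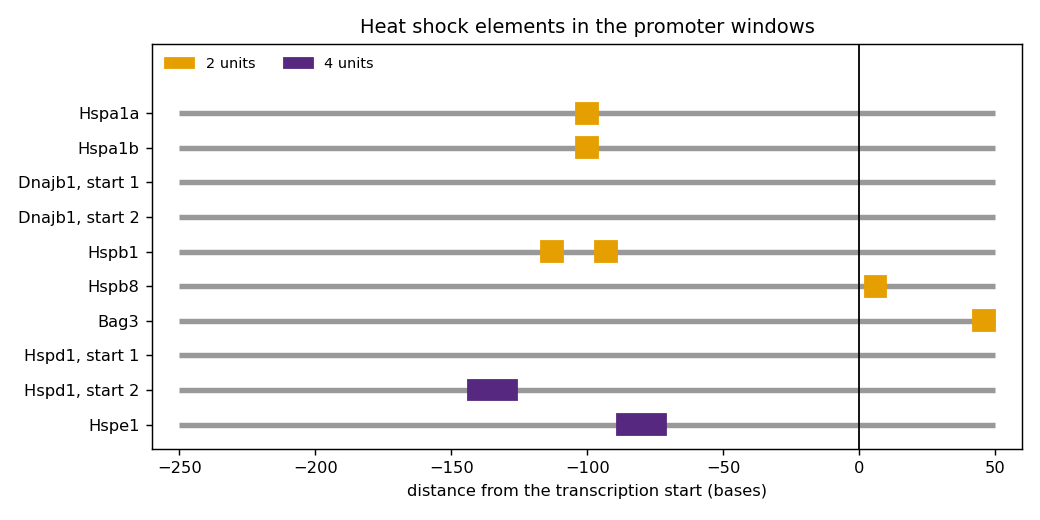
Heat shock elements in the promoter windows of 8 heat shock genes, with the distance from the transcription start in bases on the x axis and 1 line per annotated start. Boxes mark matches of 2 units or of 4 units, the latter only before the second Hspd1 start and before Hspe1.

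As a check of the labels, 1 of the 4 Lats2 probes was lower in Lats2-/- in every litter (log2 ratios of -1.33 in litter 112, -1.05 in 116 and -0.56 in 121). The other 3 Lats2 probes were lower in litters 112 and 116 but higher in litter 121, at 0.80 to 1.17. Which part of Lats2 was removed is not given in the sources used here, so these probes do not settle the labels of litter 121. The study gives a western blot of Lats2 protein as its own check of the knockout MEFs, and that blot is not used here. Every direction below for that litter rests on the genotype as labelled. Of 12 fibroblast markers, 10 were above background in all 6 extracts, whereas Epcam, Cldn4, Pecam1, Cdh5, Emcn, Ptprc and Emr1, markers of epithelial, endothelial and blood cells, were above background in none. Other markers of these cells were detected, with Tek in 5 of 6 extracts, Krt19 and Cd68 in 4, Csf1r in 2, and Cdh1, Krt8, Krt18, Kdr and Hbb-bh1 in 1 each, and the neural markers Nes, Tubb3 and Map2 were in all 6. Between 52.9% and 61.3% of probes were above background per array and dye. Litters 112 and 116 lay on slide 1 and litter 121 on slide 2, so that slide and litter 121 cannot be told apart.

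The mitochondrial chaperonin genes were lower in Lats2-/- in every litter, by similar amounts. Hspd1 (HSP60) forms the folding chamber, and its brighter probe lies at chr1:55022530-55022589 of mouse build mm8. In litters 112, 116 and 121, in this order here and below, its log2 signal in Lats2-/- measured 14.31, 14.23 and 14.24, against 14.98, 14.86 and 15.03 in Lats2+/+. The 3 Lats2-/- values lay below all 3 Lats2+/+ values, with no overlap. The log2 ratios were -0.68, -0.63 and -0.79, a mean of -0.70 ± 0.08 (SD, n = 3 litters), or 61.6% of the Lats2+/+ level, and all 8 arrays showed it lower.

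The second Hspd1 probe, at chr1:55023164-55023223, gave log2 ratios of -0.69, -0.56 and -0.82, likewise lower on 8 of 8 arrays. Hspe1 (HSP10) is the lid of the same chamber and was measured by 1 probe, at chr1:55035623-55035682. Its log2 signal was 13.78, 13.50 and 13.60 in Lats2-/- against 14.20, 13.95 and 14.16 in Lats2+/+. Again the genotypes did not overlap and 8 of 8 arrays were lower in Lats2-/-. The Hspe1 log2 ratios of -0.42, -0.44 and -0.56 averaged -0.48 ± 0.08 (SD, n = 3), or 71.8% of the Lats2+/+ level.

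At 1 probe per gene, the brightest, both chaperonin genes were also the least variable members between litters, and 11.9% of kept probes had a smaller SD than Hspd1. In limma's fit over all kept probes the p before adjustment was 0.00263 for Hspd1 and 0.00965 for Hspe1. Neither passed after Benjamini-Hochberg adjustment, with adjusted limma p of 0.692 and 0.711. By unadjusted p, Hspd1 ranked at place 86 of 22642 probes. Whether the element printed above has a part in these ratios was not tested.

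Hspa1a, the stress-inducible HSP70, was also lower in Lats2-/- in every litter, with less even differences that were larger than those of Hspd1 in litters 112 and 121 and smaller in litter 116. On its brightest probe, at chr17:34577877-34577936, the log2 signal was 10.64, 10.89 and 9.49 in Lats2-/- and 11.69, 11.29 and 10.62 in Lats2+/+. Within each litter Lats2-/- was the lower, but the genotypes overlapped across litters, because the Lats2+/+ extract of litter 121 was below the Lats2-/- extracts of the other litters. The log2 ratios were -1.05, -0.41 and -1.13, a mean of -0.86 ± 0.40 (SD, n = 3), or 1.82-fold. Lats2-/- was lower on 8 of 8 arrays. The limma p was 0.0117 before adjustment and 0.711 after it.

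The other Hspa1a probes were likewise lower on all 8 arrays. One, at chr17:34577907-34577966, gave -1.04, -0.41 and -1.11. The probe at chr17:34578229-34578288 gave -0.98, -0.33 and -1.01, and the dimmest, at chr17:34579637-34579696, gave -0.60, -0.23 and -0.46, where the Lats2-/- extract of litter 121 was above background on 1 of 4 arrays. The last 2 list transcripts of both Hspa1a and Hspa1b, so they cannot separate these near-identical copies. The first 2 list transcripts of Hspa1a alone, but cross-hybridisation with Hspa1b was not tested. No separate value for Hspa1b is therefore given.

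Hspa8 (HSC70), the HSP70 that cells make without stress, did not pass the test. Its brighter probe, at chr9:40555660-40555719, gave log2 signals of 15.00, 14.72 and 15.05 in Lats2-/- and 14.79, 14.89 and 15.16 in Lats2+/+. The genotypes overlapped, and Lats2-/- was the higher in litter 112 and the lower in the other litters. The mean log2 ratio was -0.03 ± 0.21 (SD, n = 3), with an adjusted limma p of 0.977. A second probe gave -0.13 ± 0.30 with the same signs in each litter.

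The partners of HSP70 showed no common direction with Hspa1a. Dnajb1, a J-domain protein that delivers clients to HSP70 and is itself a target of HSF1, had log2 signals of 13.88, 13.20 and 13.01 in Lats2-/- and 13.38, 13.22 and 12.74 in Lats2+/+ (probe at chr8:86501866-86501925). The genotypes overlapped, since the litters differed more than the genotypes. Its log2 ratios of 0.50, -0.02 and 0.27 averaged 0.25 ± 0.26 (SD, n = 3), and the adjusted limma p was 0.757. On the second Dnajb1 probe the ratios were 0.27, 0.21 and 0.16, a smaller spread at a similar mean of 0.21, and the unadjusted limma p was 0.0959.

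Bag3, which releases clients from HSP70 and links it to autophagy, had log2 signals of 12.00, 12.35 and 12.39 in Lats2-/- and 12.42, 12.04 and 12.20 in Lats2+/+ (probe at chr7:128337915-128337974). Lats2-/- was the lower in litter 112 and the higher in the other litters. The mean log2 ratio was 0.03 ± 0.39 (SD, n = 3), with an adjusted limma p of 0.984, and the second probe had the same sign in each litter.

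**Figure D2:**
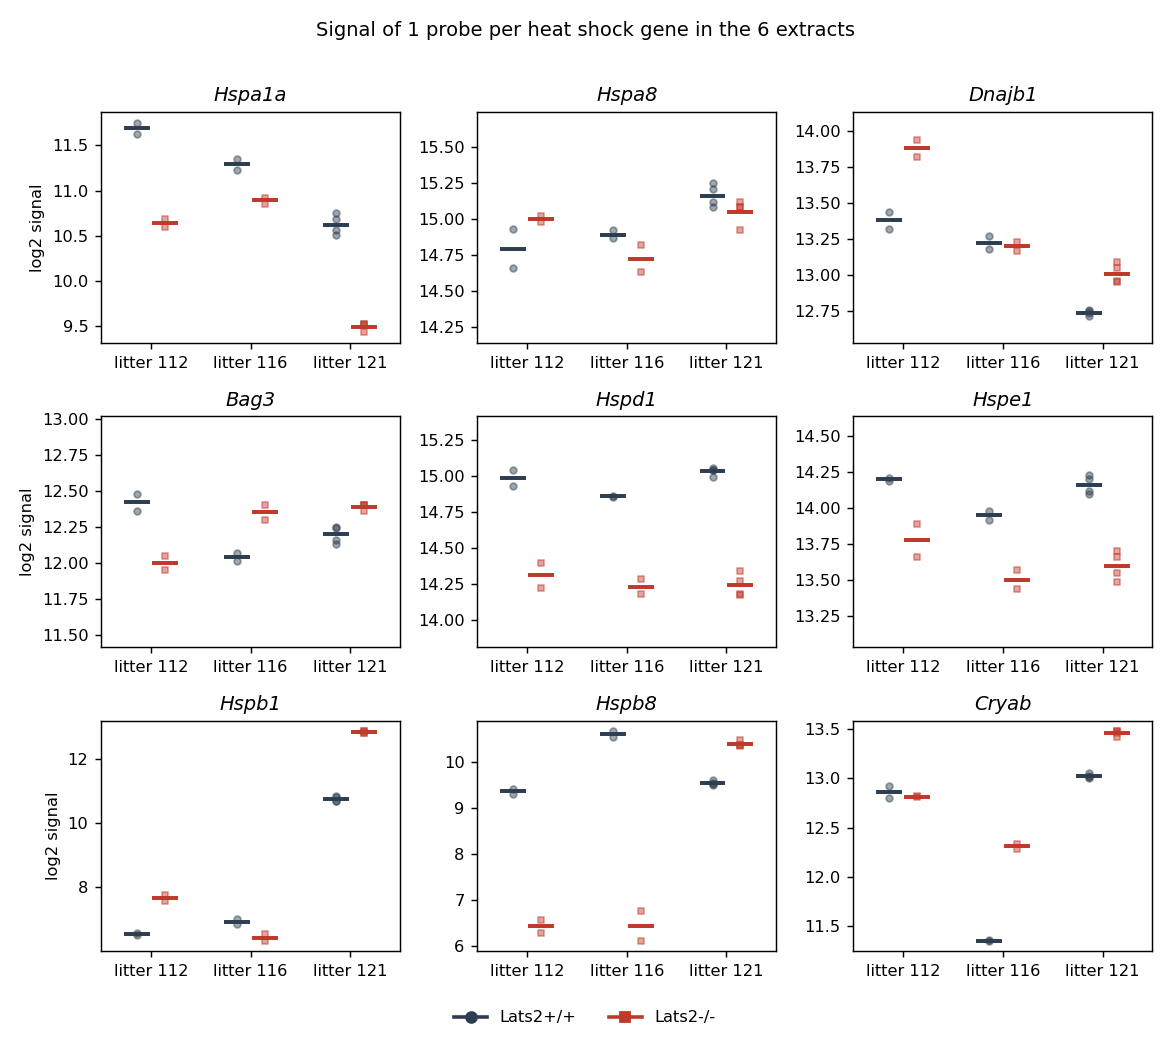
Log2 signal of the brightest kept probe of 9 heat shock genes in the 6 extracts (y axis, scaled for each gene), by litter (x axis). Small symbols are single arrays and lines the mean of an extract. The genotypes separate without overlap for Hspd1 and Hspe1, and Hspb1 is high in both extracts of litter 121.

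Among the small heat shock proteins, Hspb8 and Hspb1 differed in opposite directions from litter to litter and had the widest ratios of all members. Hspb8 (HSP22), a partner of Bag3, had log2 signals of 6.44, 6.44 and 10.39 in Lats2-/- and 9.37, 10.62 and 9.55 in Lats2+/+ (probe at chr5:116670053-116670112). The Lats2-/- extracts of litters 112 and 116 stood far below the rest, while that of litter 121 was above its littermate. In each of these dim extracts the probe was well above background on 1 of 2 arrays, so the ratios there rest partly on signal near background. The probe passed the filter through Lats2+/+ alone, where it is the brighter in these litters, so its calls are partly set by that choice.

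The Hspb8 log2 ratios were -2.94, -4.18 and 0.84. Arrays of 1 litter repeated the value, from -4.44 to -3.93 in litter 116 and from 0.80 to 0.86 in litter 121. The mean of -2.09 ± 2.62 (SD, n = 3) had an adjusted limma p of 0.750, and its SD exceeded that of 99.6% of kept probes. The mean was -1.67 without litter 112, -1.05 without litter 116 and -3.56 without litter 121. With the processed signals of Feature Extraction it was -3.78.

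Hspb1 (HSP25, the mouse form of HSP27) had log2 signals of 7.67, 6.43 and 12.85 in Lats2-/- and 6.54, 6.93 and 10.76 in Lats2+/+. Both extracts of litter 121 were far above all others, by 5.80 in Lats2-/- and 4.03 in Lats2+/+ over the mean of litters 112 and 116 on the log2 scale. The range of 4.22 among the 3 Lats2+/+ extracts exceeded that of 99.6% of kept probes, whose median range was 0.47. Litter and slide cannot be told apart in this difference. The values of litters 112 and 116 rest partly on signal near background, as given below, so its size is not exact.

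Within litters, the Hspb1 log2 ratios were 1.13, -0.50 and 2.09, a mean of 0.91 ± 1.31 (SD, n = 3) with an adjusted limma p of 0.761. The mean was 0.31 without litter 121 and 1.61 without litter 116, the latter with a limma p of 0.0161 before and 0.834 after adjustment. Lats2-/- was 2.19-fold higher in litter 112, 1.42-fold lower in litter 116 and 4.26-fold higher in litter 121. In litter 112 the Lats2+/+ extract, and in litter 116 the Lats2-/- extract, was above background on 1 of 2 arrays. The second probe named Hspb1 lies on chromosome 13 of mm8 rather than chromosome 5, was above background on no array, and was not kept.

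Cryab (alpha B-crystallin), a small heat shock protein of lens and muscle, had log2 signals of 12.81, 12.31 and 13.46 in Lats2-/- and 12.86, 11.35 and 13.02 in Lats2+/+ (probe at chr9:50508565-50508624). The Lats2+/+ extract of litter 116 was the lowest, and the genotypes overlapped. The log2 ratios were -0.05, 0.95 and 0.44, a mean of 0.45 ± 0.50 (SD, n = 3) with an adjusted limma p of 0.747. The second probe gave -0.09, 1.49 and 0.40. In litter 116, where Cryab differed most, all 12 kept smooth and striated muscle genes were higher in Lats2-/- with a median log2 ratio of 2.19, and fibroblast markers had a median of 2.22. The muscle medians were -0.42 in litter 112 and 0.25 in litter 121, and Des, Myog and Myod1 were above background in no extract. Whether these shifts have a part in the Cryab ratio was not tested, and in bulk RNA fewer cells of a type and less RNA per cell cannot be told apart.

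**Figure D3:**
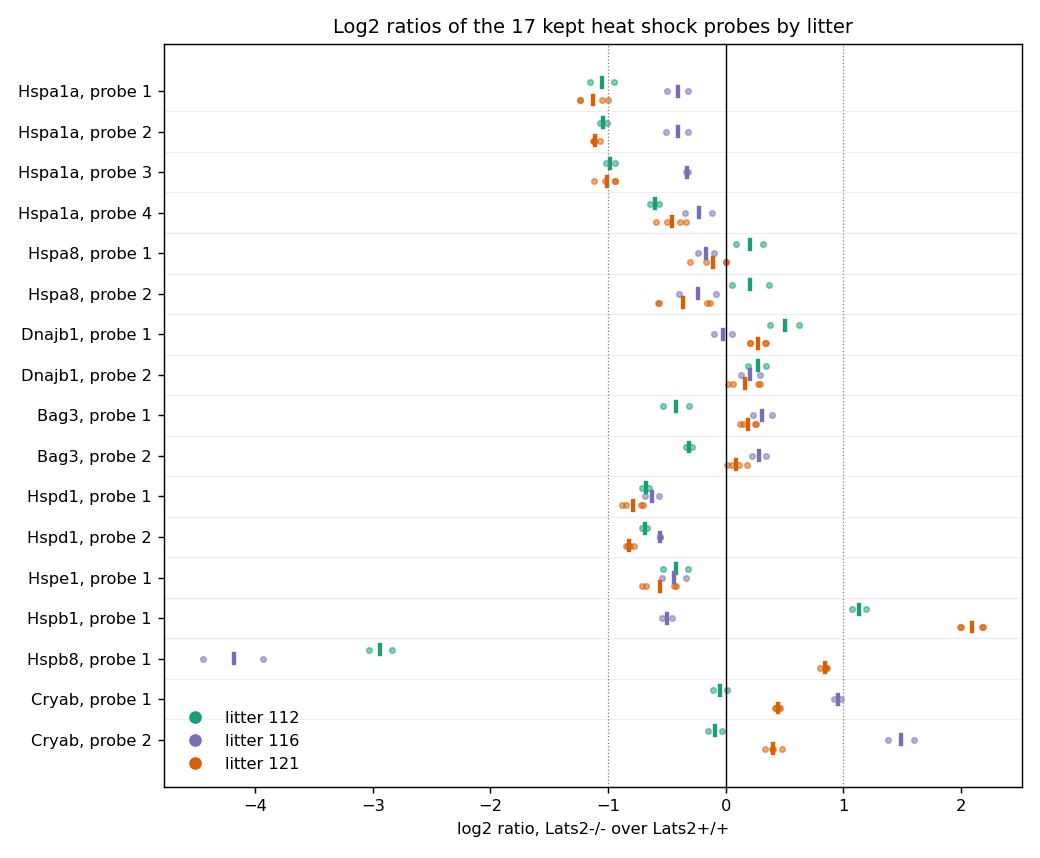
Log2 ratios of Lats2-/- over Lats2+/+ (x axis) for the 17 kept heat shock probes (y axis), with probe 1 the brightest of a gene. Points are single arrays, short lines litter means and dotted lines 2-fold. Hspa1a, Hspd1 and Hspe1 lie below 0 on every array, and Hspb8 changes sign between litters.

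Counted together at 1 probe per gene, 0 of 9 members passed the adjusted threshold of 0.05, as did 0% of kept probes, of which the smallest adjusted limma p was 0.634. At an unadjusted limma p under 0.05, 3 of 9 were lower in Lats2-/- (Hspa1a, Hspd1 and Hspe1), beside 3.29% of kept probes, and 0 were higher, beside 3.56%. The same 3 genes were lower in all 3 litters, beside 14.8% of kept probes. Were the labels of litter 121 exchanged, all 3 would be higher in that litter and lower in the other litters. For 2 of 9, Hspd1 and Hspe1, all 3 Lats2-/- extracts lay below all 3 Lats2+/+ extracts, beside 3.04% of kept probes. The count of 3 depended on the litters: Hspd1 passed without any of them, whereas Hspa1a did not without litter 112 (-0.77) or 121 (-0.73), and Hspe1 did not without litter 121 (-0.43). Other members passed when a litter was left out: Cryab without litter 112 (0.70), Hspb1 without litter 116 (1.61) and Hspb8 without litter 121 (-3.56), the last against Lats2-/- signals near background. By the methods' t-test and in the unpaired fit Hspa1a did not pass either, which leaves 2 members. No member combined a mean change of at least 2-fold with an unadjusted limma p under 0.05, beside 0.835% of kept probes.

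In litter 112, 3 of 9 members differed at least 2-fold (Hspa1a and Hspb8 lower, Hspb1 higher), beside 3.77% of kept probes. In litter 116 it was 1 of 9, Hspb8, beside 7.71%, and in litter 121 it was 2 of 9, Hspa1a lower and Hspb1 higher, beside 6.09%. The counts of litters 112 and 116 include Hspb8, whose Lats2-/- signal there was near background and which passed the filter through Lats2+/+ alone. For Hspb1 in litter 112, the Lats2+/+ extract was above background on 1 of 2 arrays. The median log2 ratio of the members was -0.42, -0.41 and 0.19 in litters 112, 116 and 121, against a median between 0.00 and 0.01 over kept probes. Over the litters' means the members' median was -0.03, with 5 genes lower and 4 higher, against 0.01 over kept probes. Lower and higher members numbered 6 and 3 in litter 112, 7 and 2 in litter 116, and 4 and 5 in litter 121.

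**Figure D4:**
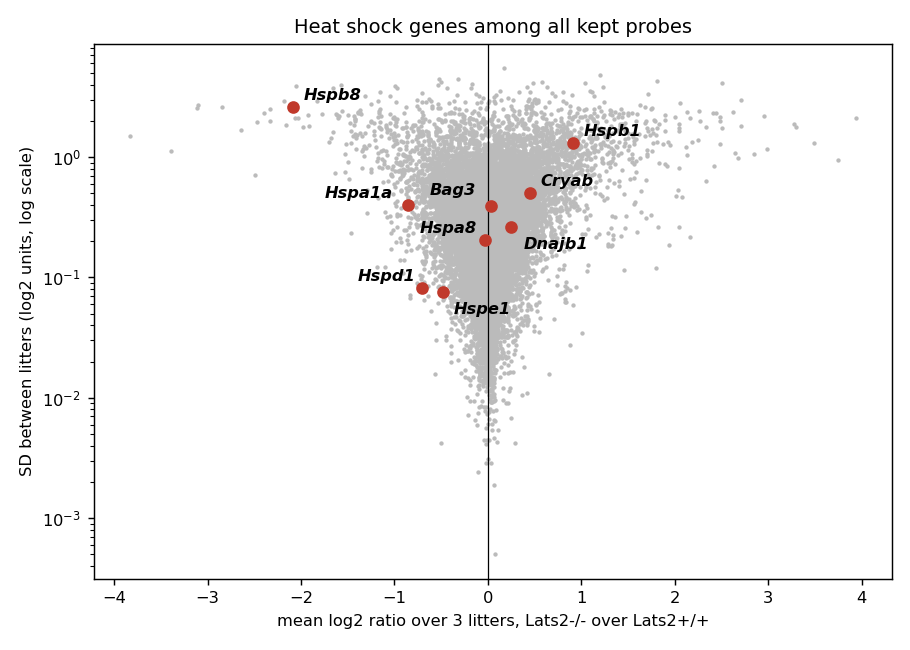
Mean log2 ratio over 3 litters (x axis) and SD between litters (y axis, log scale) of 22642 kept probes in grey and of 9 heat shock genes in red. Hspd1 and Hspe1 combine means of -0.70 and -0.48 with an SD of 0.08, whereas Hspb8 and Hspb1 have SDs of 2.62 and 1.31.

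Other chaperone genes were read from the same fit. Of 36 other cytosolic chaperones, co-chaperones and heat shock factors, 2 were lower at an unadjusted limma p under 0.05, and the litter medians were -0.09, -0.24 and -0.02. The lower ones were Fkbp5, a co-chaperone of HSP90 and glucocorticoid target, at -0.77 ± 0.32, and Hspa4, an exchange factor of HSP70, at -0.67 ± 0.35 (SD, n = 3). Hsf1 itself had log2 ratios of -0.08, 0.12 and 0.07 on its brightest probe. Another kept Hsf1 probe gave -0.07, -0.78 and -0.01, so the probes differ in litter 116. None of these passed adjustment (adjusted limma p of 0.711 for Fkbp5 and Hspa4).

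The cytosolic chaperonin TRiC/CCT, the counterpart of the Hspd1 chamber outside mitochondria, had 4 of 13 genes (prefoldin included) lower at an unadjusted limma p under 0.05, beside 3.29% of kept probes, and 0 higher. These were Cct2 at -0.57 ± 0.10, Cct5 at -0.51 ± 0.16, Cct6a at -0.45 ± 0.16 and Cct3 at -0.37 ± 0.09 (SD, n = 3), each with an adjusted limma p of 0.711. The median of the 13 was -0.19, -0.33 and -0.22 in the litters, and 8 of 13 were lower in all 3 litters, beside the 14.8% of kept probes.

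Of 12 other mitochondrial chaperones and proteases, 0 had an unadjusted limma p under 0.05, beside 6.84% of kept probes in either direction, with medians of 0.02, -0.12 and -0.09, and their HSP70, Hspa9, had log2 ratios of 0.08, -0.16 and -0.86. Of 14 chaperones of the endoplasmic reticulum 0 passed, beside the same 6.84%, and their medians were -0.21, 0.18 and 0.25. Among the other small heat shock proteins, 4 of 7 were kept and 1 was higher at the unadjusted threshold, beside 3.56% of kept probes: Hspb2, the neighbour of Cryab, at 0.46 ± 0.29.

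Handling of cells also raises immediate early genes, which respond to serum and mechanical stress within minutes. Of 20 such genes, 9 were higher at an unadjusted limma p under 0.05, beside 3.56% of kept probes, and 0 lower, beside 3.29%. The median log2 ratio was 2.33, 0.20 and 0.78 in litters 112, 116 and 121. In litter 112, where Hspa1a was 2.07-fold lower, 14 of 20 were at least 2-fold higher and 0 were 2-fold lower, beside 3.77% of kept probes in either direction. In litter 116, beside 7.71%, 5 were at least 2-fold higher (Egr2, Nr4a1, Egr1, Fos and Junb) and 4 lower (Fosl1, Myc, Jun and Atf3).

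By smallest p, the first of them were Junb at 2.08 ± 0.46, Nr4a1 at 2.85 ± 1.05, Zfp36 at 1.22 ± 0.48, Egr2 at 3.94 ± 2.11, Ier2 at 1.54 ± 0.97 and Egr1 at 2.71 ± 1.80 (SD, n = 3, each higher in 3 of 3 litters). Their adjusted limma p was 0.634 for Junb and 0.711 for the others. In litter 121, where Hspa1a was farthest from 0, only Myc at -1.06 and Fosl1 at -1.28 of the 20 were at least 2-fold in the direction of Hspa1a, and 7 were at least 2-fold higher, beside 6.09% of kept probes. Whether handling has a part in either set was not tested.

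**Figure D5:**
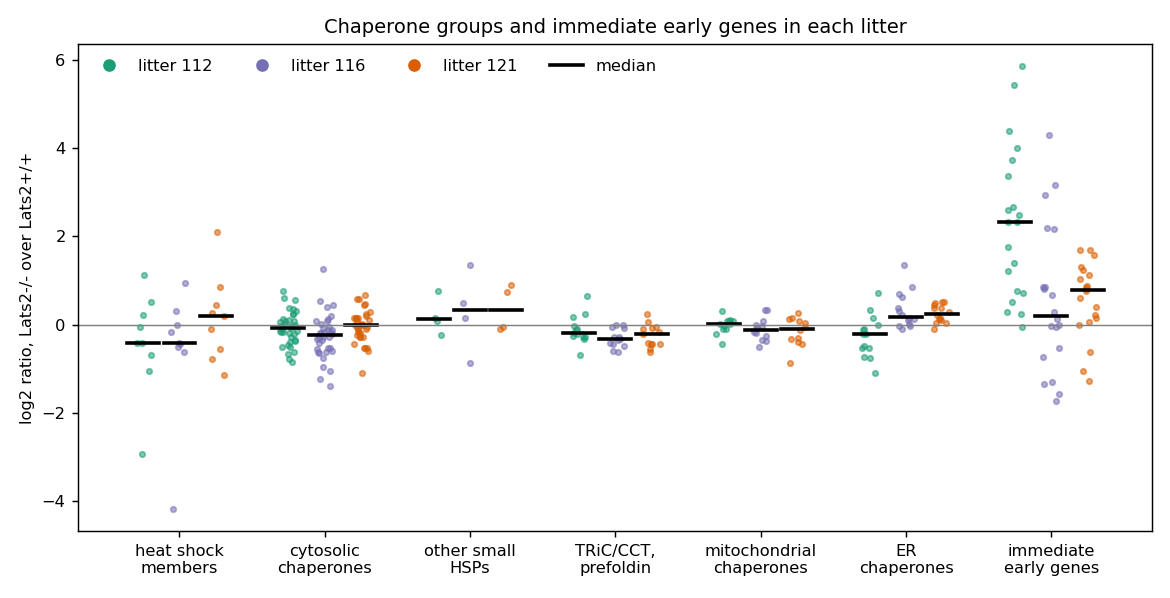
Log2 ratios of Lats2-/- over Lats2+/+ (y axis) of single genes in 7 gene groups (x axis), by litter, with medians as black lines. The immediate early genes have medians of 2.33, 0.20 and 0.78, and the medians of the heat shock members are -0.42, -0.41 and 0.19.

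Other groups can move with the state of a culture. Of 8 kept genes of the NRF2 and metallothionein list, which respond to oxidants and metals, 1 was lower at an unadjusted limma p under 0.05 (Gclm, -0.44 ± 0.28), beside 3.29% of kept probes. All 8 had a mean log2 ratio below 0, but 3 were lower in all 3 litters, beside 14.8% of kept probes. The litter medians were -0.49, -1.02 and -0.13. Of 17 proliferation genes 1 was lower at that threshold (Mcm6, -0.68 ± 0.12), and 17 of 17 had a mean log2 ratio below 0. Of these, 3 were lower in all 3 litters, beside the same 14.8%, and 14 were higher in litter 121. Their litter medians were -0.61, -0.73 and 0.27. These medians were negative in litters 112 and 116, as were those of the heat shock members, and whether growth rate has a part in the members' ratios was not tested. Among epithelial markers 1 of 6 was kept, Krt19, at 1.54 ± 1.05, which passed the filter through Lats2-/- alone. It was higher with a limma p of 0.0284 before adjustment and 0.711 after it, beside 3.56% of kept probes. Of the endothelial, blood cell and neural markers, 1, 2 and 4 were kept. In these lists 0 had an unadjusted limma p under 0.05, beside 6.84% of kept probes in either direction. The count was also 0 of 12 for fibroblast markers, whose medians were 0.14, 2.22 and -0.95.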

How the data were processed

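RNA of 6 extracts was measured on 8 Agilent 4x44K arrays. The authors extracted the scans with Agilent Feature Extraction (10.7.3.1 per the file headers, 10.5.1.1 in the submitters' processing notes). The deposited scanner files give the mean intensity of each spot and the median intensity of its local background, not normalized. The deposited value table holds log10 ratios after the dye normalization of Feature Extraction, already turned to Lats2-/- over Lats2+/+, as set against the scanner ratios to within 0.005.

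Here intensities were background corrected with normexp (offset 50) and normalized by loess within arrays in limma 3.58.1 (R 4.3.3). Control spots were dropped along with 860 outlier spots, and saturation was flagged on no gene spot. Ratios were turned to Lats2-/- over Lats2+/+, and arrays of a litter, which hold the same extracts, were averaged, so that n is 3 litters. Dye swaps were balanced. Log2 signals per extract were taken after Aquantile between arrays. The offset draws ratios of dim probes towards 0. Where a gene had several kept probes, the one with the highest mean signal stood for it.

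The litter ratios were tested against 0 with limma (lmFit and eBayes, two-sided), adjusted by Benjamini-Hochberg over 22642 kept probes (14727 genes), and the code was tested on simulated data. These p-values measure the spread of the ratios between 3 litters, that is between 3 pairs of clones, and not the spread of clones within a genotype. Precision is limited by how few litters and arrays there are. Genotypes were paired within the array and the litter, as the clone names give it. The members and all gene lists were chosen with earlier results of these data known. Named genes were all members, Lats2, up to 6 genes per other list with an unadjusted p under 0.05, and immediate early genes at least 2-fold in the direction of Hspa1a in the litter where it was farthest from 0. Single genes of the lists that this rule would name are in part not reported here. Hsf1, Hspa9, Fos, Jun and Atf3 were added after their values were seen. Gene names are those of the array design, updated through RefSeq accessions where possible. Probe coordinates are the files' own (mm8), and promoters are RefSeq's (GRCm38.p6). Alternatives were another offset, processed signals, the value table, median centring, other filters, the methods' t-test, unpaired, litter-block, slide-block and dye fits, all probes of a gene, and leaving out a litter.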

Additional observations from a re-analysis of the deposited data

How the results depend on the processing

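Under 17 alternatives, Hspa1a, Hspd1, Hspe1, Hspb1, Cryab and Dnajb1 kept their sign in every fit run (16 for Hspb1, which like Hspb8 was dropped by the strict filter), with ranges of -1.13 to -0.73 for Hspa1a, -0.79 to -0.65 for Hspd1, -0.56 to -0.43 for Hspe1, 0.31 to 2.09 for Hspb1, 0.20 to 0.70 for Cryab and 0.12 to 0.39 for Dnajb1. Hspb8 ranged from -3.78 to 0.84. Litters were left out in turn: the number of members past the adjusted threshold stayed at 0, that at an unadjusted p under 0.05 ranged from 2 to 4, and that with 2-fold added from 0 to 2. Hspa1a lost its unadjusted call without litter 112 (-0.77) or without litter 121 (-0.73), and Hspe1 without litter 121 (-0.43). Without litter 121, which is also the fit within slide 1, Hspb8 was the 1 member past both the 2-fold size and the unadjusted p, with Lats2-/- near background and the filter passed through Lats2+/+ alone.

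The direction of Hspb8 turned within slide 2, that is litter 121 alone (0.84). Hspa8 turned within slide 1 and without litter 121 (0.02 in both) and without litter 116 (0.05). Bag3 turned with the processed signals (-0.00118), the value table (-0.000858), median centring (-0.02), within slide 1 and without litter 121 (-0.05) and without litter 116 (-0.11), with a range of -0.11 to 0.25 when a litter was left out. The cause was not tested.

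Fits over the 8 arrays count arrays of 1 pair of extracts as further observations. They called more probes over the whole array: 341 past adjustment and 2999 at an unadjusted p under 0.05 with litter as a block, 717 and 4029 with slide, and 202 and 2852 with litter as a block and a dye term, against 0 and 1549 in the litter fit. With litter as a random block, 1 member passed adjustment (Hspd1), 6 had an unadjusted p under 0.05 and 1 had 2-fold added. With slide as a random block these were 3 (Hspa1a, Hspd1 and Hspe1), 4 and 1, and with litter as a block and a dye term they were 2 (Hspa1a and Hspd1), 6 and 1. The unpaired fit with no replicate block gave 0 past adjustment and 2 at an unadjusted p under 0.05 (Hspd1 and Hspe1), as did the methods' t-test. The median of the members ranged from -0.14 to 0.19 over all alternatives.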
